A study of Mus musculus with 66 samples.

Results

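The genes described here encode collagen chains, laminin chains, integrin subunits and the secreted or membrane-bound proteases and inhibitors that act on the extracellular matrix. They were taken by symbol: every gene whose symbol starts as a collagen alpha chain, a laminin chain, an integrin subunit, Adamts, Mmp or Timp, other than Col1a1, Col1a2 and Col3a1. Of 120 such symbols on the array, 78 had a probe set whose mean over all arrays reached the 40th percentile of all probe sets (log2 5.10), and each was represented by its brightest probe set. The other 42 lay below that level and were not tested, among them Mmp9, a gelatinase studied in synaptic remodelling. Just inside the limit lay Mmp19 at a mean of 5.11 and Itgb3 at 5.16, and just outside lay Col15a1 at 5.08 and Col14a1 at 5.05. The 78 were among 13196 genes tested.

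RNA came from the medial prefrontal cortex of male mice aged 10 to 12 weeks, with 4 to 5 mice pooled on each array. All mice received an intraperitoneal injection of either saline or ethanol (1.8 g/kg), and all, controls included, were restrained for 15 minutes and placed in a light-dark chamber for 10 minutes before death 4 hours after the injection. C57BL6/J and DBA/2J, the progenitor strains, had 3 saline and 3 ethanol arrays each. The BXD panel consists of recombinant inbred strains bred from both, and each of its 27 strains here gave 1 array per treatment. A replicate is therefore a pool of mice, and in the BXD panel the strain is the replicate of a treatment. The labels do not tie arrays to processing batches, so p-values measure the spread between these arrays, which may be partly technical.

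Collagens and laminins are the fibres and sheets of the extracellular matrix. In adult cortex they lie mainly in the basement membranes of blood vessels and of the pial surface, where collagen IV and laminin networks join. Cells attach to them through integrins, heterodimers of an alpha and a beta subunit. Matrix metalloproteinases (Mmp) and the Adamts proteases cut matrix proteins and proteoglycans, and tissue inhibitors of metalloproteinases (Timp) block them.

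The values are log2 levels on the RMA scale, on which a difference of 1 is a 2-fold change. Each probe set hybridises with its own strength, so levels are compared between arrays and never between genes. Over the 66 arrays the median level ran from 5.67 to 5.77 and the standard deviation (SD) of all probe sets from 2.06 to 2.17. Both BXD38 arrays and the first saline DBA/2J array had low SDs, and both BXD34 arrays had high ones. Single arrays of other strains were as extreme. Saline BXD14 had the lowest SD, 2.06, but its ethanol array had 2.12, and saline BXD42 (2.16) lay above saline BXD34 (2.15). BXD38 held the lowest strain mean for 11 of the 78 genes and the highest for 9, and BXD34 the lowest for 13 and the highest for 3. Over all 13196 genes BXD38 was lowest for 16.5% and highest for 7.89%, and BXD34 lowest for 7.71% and highest for 10.9%. Strain results are therefore given with and without both. Markers of cortical neurons (11 of 12), astrocytes (10 of 10), microglia (11 of 12), endothelium (14 of 15), pericytes and smooth muscle (9 of 10) and meninges and fibroblasts (12 of 12) had values above the limit. Signal of striatal markers (6 of 8) was also present. Dissected bulk tissue was measured, so fewer cells of a type and less RNA per cell cannot be told apart.

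Ethanol changed none of the 78 genes past the threshold in any group. A gene passed at an adjusted p below 0.05 (limma, Benjamini-Hochberg over all 13196 genes). In the BXD panel 0 of 78 passed (0.00758% of all genes did), while 5 reached an unadjusted p below 0.05 (4.93%). All 78 paired differences lay between -0.08 and 0.10, with a median of -0.01, which was also the median of all genes. A Wilcoxon signed-rank test on the paired differences of the 27 strains called 0 of 78 as well.

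The 6 genes with the smallest p in the BXD panel were Itgb2, Col4a2, Itga5, Adamtsl5, Itga8 and Col18a1. Itga8, the alpha subunit of a receptor for nephronectin and other RGD proteins, was the largest of them. Its saline arrays had a lowest level of 4.73, a median of 5.46 and a highest of 5.98, and its ethanol arrays 4.95, 5.51 and 6.29. The ranges overlapped almost wholly. The difference was 0.10 (SE 0.05, n = 27, adjusted p = 0.957), and 18 of 27 strains were higher after ethanol.

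Itgb2, the beta subunit of leukocyte and microglial integrins, had levels of 5.43, 5.71 and 6.06 after saline (lowest, median, highest) and 5.37, 5.63 and 5.97 after ethanol. Its difference was -0.08 (SE 0.04, adjusted p = 0.934), with 19 of 27 strains lower. Beside it, 10 of 11 microglia markers had negative differences, with a median of -0.06 and 0 past the threshold; their part in the Itgb2 value was not tested. Col4a2, a chain of the major vascular basement membrane collagen, had levels of 7.51, 7.85 and 8.09 after saline and 7.41, 7.82 and 8.04 after ethanol. The difference was -0.07 (SE 0.03, adjusted p = 0.934), and 18 of 27 strains were lower. Of 14 endothelial markers, 13 had negative differences in the same arrays, with a median of -0.05 and 0 past the threshold; their part in the Col4a2 value was not tested. Itga5, the alpha chain of the classical fibronectin receptor, differed by -0.08 (SE 0.03), the secreted Adamts-like protein Adamtsl5 by -0.08 (SE 0.04), and Col18a1, whose C-terminal fragment is endostatin, by -0.07 (SE 0.04). Each of these was lower in 17 to 19 of the 27 strains.

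In C57BL6/J, 0 of 78 genes passed (limma; 0.00758% of all genes), while 3 reached an unadjusted p below 0.05 (4.98%). Differences ran from -0.22 to 0.31 with a median of 0.04, against -0.02 over all genes. The ethanol and saline arrays did not overlap for 5 genes, all higher after ethanol, or 5 of 78 against 9.85% of all genes. Col4a6, a basement membrane collagen chain, read 5.22, 4.82 and 5.05 on the saline arrays and 5.27, 5.30 and 5.45 on the ethanol arrays. All 3 ethanol arrays lay above the saline ones, by little. The difference was 0.31 (SE 0.12, n = 3 per group, limma adjusted p = 0.922). Col8a1, a short-chain network collagen of vascular walls, read 5.41, 5.40 and 5.52 after saline and 5.57, 5.90 and 5.69 after ethanol, a difference of 0.28 (SE 0.11, adjusted p = 0.922). Itgb1, the beta subunit shared by most matrix-binding integrins, read 7.36, 7.12 and 7.18 after saline and 7.36, 7.53 and 7.42 after ethanol, with overlap (0.22, SE 0.10, adjusted p = 0.922). A second Itgb1 probe set differed in the other direction, by -0.13. The differences of Timp3 (0.18, SE 0.09), Itgax (0.17, SE 0.08) and Mmp16 (-0.17, SE 0.08) completed the 6 smallest p. Beside these values, the meningeal and fibroblast markers had a median difference of 0.16 in C57BL6/J, positive for 10 of 12, with 0 past the threshold. Their mean level ran from 6.97 to 7.26 on the saline arrays and from 7.20 to 7.41 on the ethanol arrays. With that mean as a covariate 0 of all 13196 genes passed in C57BL6/J (limma). As 0 of the 78 passed without it too, that count cannot show the markers' part in these values.

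In DBA/2J, 0 of 78 genes passed (limma; 0.0% of all genes), while 10 reached an unadjusted p below 0.05 (12.5%). Differences ran from -0.41 to 0.57 with a median of -0.05, against 0.00 over all genes. Arrays did not overlap for 16 genes, 6 higher and 10 lower after ethanol (17.9% of all genes). Itga8 read 4.87, 5.26 and 4.82 after saline and 5.50, 5.61 and 5.53 after ethanol. The groups did not overlap, and the difference was 0.57 (SE 0.15, n = 3 per group, limma adjusted p = 0.167). Timp4, an inhibitor found mostly in heart, brain and fat, read 6.72, 6.92 and 7.20 after saline and 7.22, 7.36 and 7.37 after ethanol (0.37, SE 0.14, adjusted p = 0.319). Its second probe set differed in the other direction, by -0.09.

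Of the 4 genes with negative differences among the 6 smallest p in DBA/2J, 3 encode proteases. Adamts8, a protease with anti-angiogenic activity, read 6.31, 6.22 and 6.59 after saline and 6.08, 5.94 and 6.07 after ethanol (-0.34, SE 0.10, adjusted p = 0.197). Adamts9, a proteoglycan-cutting family member, read 5.97, 5.81 and 5.79 against 5.55, 5.59 and 5.38 (-0.35, SE 0.11, adjusted p = 0.234). Its second probe set differed in the other direction, by 0.09. Mmp19, a soluble metalloproteinase, differed by -0.26 (SE 0.10), and Col2a1, the main fibrillar collagen of cartilage and vitreous, by -0.41 (SE 0.13). No test of these values reached the threshold. The same 3 saline DBA/2J arrays enter the strain comparison after saline given below.

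**Figure D1:**
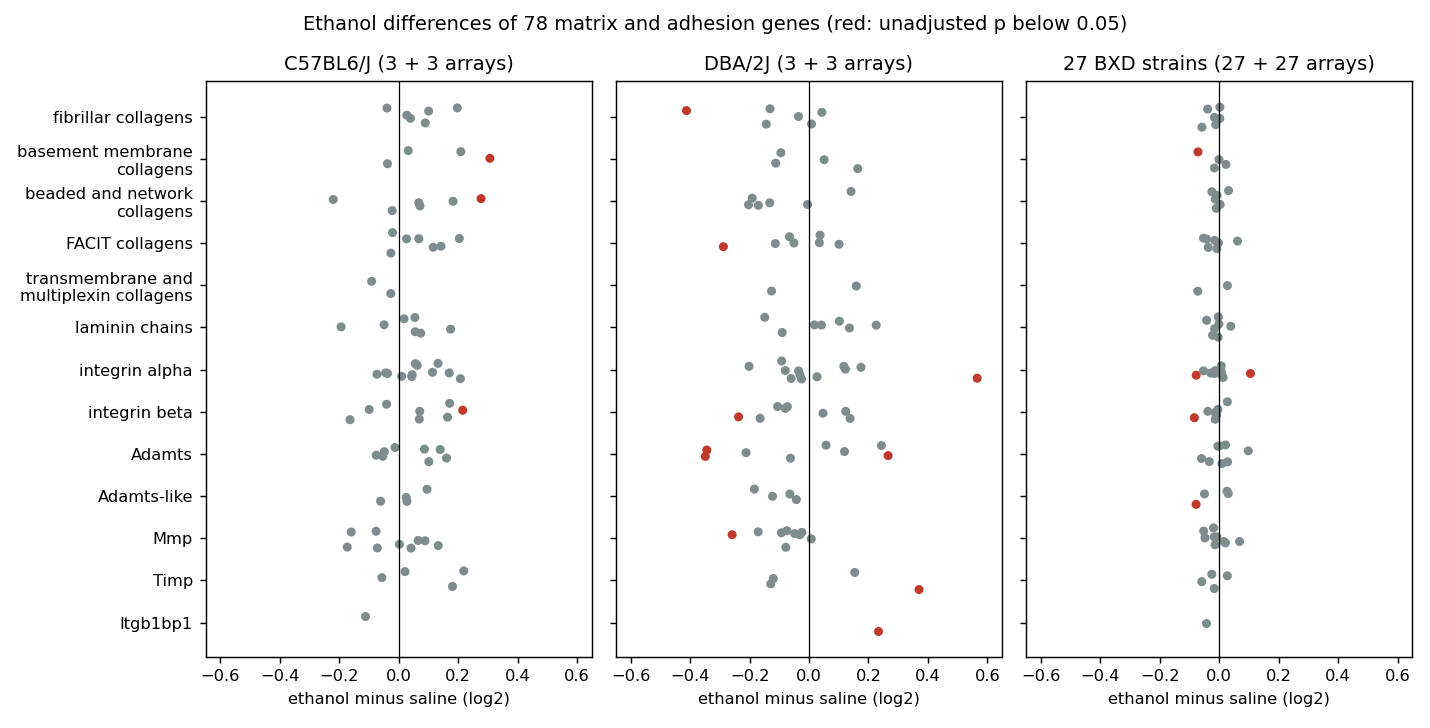
Ethanol minus saline difference of each of the 78 genes (log2, horizontal axis) by role (rows), in C57BL6/J, DBA/2J and the 27 BXD strains; points are genes with small vertical offsets, and red marks an unadjusted p below 0.05. The BXD differences, averaged over 27 strains, stay between -0.08 and 0.10, while those of DBA/2J, from 3 arrays per group, reach -0.41 and 0.57.

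Averaged over both progenitors 0 of 78 passed (limma; 0.0455% of all genes did, and 0.0379% upward), while 5 reached an unadjusted p below 0.05 (8.84%). Itga8 had the smallest p (0.34, SE 0.10, adjusted p = 0.452), followed by Mmp16 (-0.17), Timp3 (0.17), Itgax (0.15), Col6a4 (0.16) and Adamts3 (0.14). The difference between the strains' responses, DBA/2J minus C57BL6/J, called 0 of 78 (0.0% of all genes), while 9 reached an unadjusted p below 0.05 (8.31%). Adamts8 had the smallest p (-0.45, SE 0.14, adjusted p = 0.563), followed by Adamts9 (-0.44), Mmp19 (-0.39), Col2a1 (-0.50), Itgb1bp1 (0.34) and Col4a6 (-0.40). The second Adamts9 probe set gave 0.10 here. The responses of the strains were therefore not shown to differ for any member.

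Without ethanol, 5 of the 78 genes differed between the progenitors (10.3% of all genes did), and 19 had an unadjusted p below 0.05 (25.2%). In DBA/2J, 3 were lower, Timp4, Itga8 and Lamc1 (6.27% of all genes were), and 2 were higher, Adamts8 and Col27a1 (4.07%). The median DBA/2J minus C57BL6/J difference was 0.10, against 0.02 over all genes, and 53 of 78 differences were positive. Arrays did not overlap for 22 genes, 14 higher and 8 lower in DBA/2J (30.4% of all genes).

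Timp4 read 7.60, 7.33 and 7.72 in C57BL6/J and 6.72, 6.92 and 7.20 in DBA/2J. The strains did not overlap, and DBA/2J was 1.52-fold lower (-0.60, SE 0.14, adjusted p = 0.0118). A second Timp4 probe set differed by -0.12 and did not pass. Itga8 read 5.73, 5.46 and 5.33 in C57BL6/J and 4.87, 5.26 and 4.82 in DBA/2J, 1.44-fold lower (-0.52, SE 0.15, adjusted p = 0.0303). Lamc1, the gamma chain of most brain and vascular laminins, read 6.47, 6.27 and 6.48 against 5.89, 6.24 and 6.01 (-0.36, SE 0.10, adjusted p = 0.0384). Its second probe set differed in the other direction, by 0.12, and did not pass.

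Adamts8 read 6.10, 5.93 and 5.97 in C57BL6/J and 6.31, 6.22 and 6.59 in DBA/2J (0.38, SE 0.10, adjusted p = 0.0210). Col27a1, a fibrillar collagen of developing cartilage, read 7.26, 7.25 and 7.18 against 7.64, 7.46 and 7.40 (0.27, SE 0.08, adjusted p = 0.0452). Its dimmer second probe set gave 0.28 and did not pass. In every case the lowest array of the higher strain lay above the highest of the lower strain.

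With the array SD as a covariate 0 of the 5 stayed past the threshold (adjusted p from 0.0652 for Adamts8 to 0.227 for Col27a1). The differences were then 0.37 for Adamts8, -0.44 for Timp4, -0.46 for Itga8, -0.26 for Lamc1 and 0.18 for Col27a1, each in the same direction. Without the first saline DBA/2J array, the one with the low SD, 1 of the 5 stayed, Adamts8 (0.41, adjusted p = 0.0359); Timp4 then had -0.49 with adjusted p = 0.0604, Itga8 -0.47 with 0.107, Lamc1 -0.28 with 0.160 and Col27a1 0.20 with 0.189. Of the C57BL6/J arrays, leaving out the saline replicate 1 kept 1 of the 5, replicate 2 kept 2 and replicate 3 kept 1. Markers of other cell types differed as well. Of 9 oligodendrocyte markers 8 were lower in saline DBA/2J (median -0.71). Their mean level ran from 7.87 to 8.14 in DBA/2J and from 8.67 to 8.77 in C57BL6/J. Among microglia markers 4 of 11 were lower, and their mean level ran from 7.86 to 8.03 against 8.13 to 8.34. Of 12 meningeal and fibroblast markers 1 was higher, with a median of 0.17; their mean ran from 7.19 to 7.43 against 6.97 to 7.26. With the mean of that last list as a covariate 1 of the 5 calls stayed, Timp4 (adjusted p = 0.0298). Of 6 choroid plexus markers 3 had a value and 0 passed; their mean ran from 6.61 to 7.19 in saline DBA/2J and from 6.22 to 6.40 in saline C57BL6/J, without overlap. Among them Ttr, the transthyretin gene, differed by 1.44 (SE 0.84, limma adjusted p = 0.301). The part of the oligodendrocyte, microglia and choroid plexus markers was not tested.

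After ethanol, on other arrays of the same strains, 1 of 78 genes differed (7.23% of all genes). It was higher in DBA/2J, as were 4.34% of all genes, and 0 were lower (2.89%). This was Itgb1bp1, which is no integrin but the cytoplasmic protein ICAP1 that binds the tail of integrin beta 1. It read 7.50, 7.36 and 7.37 in C57BL6/J and 8.00, 7.86 and 8.05 in DBA/2J, without overlap and 1.47-fold higher in DBA/2J (0.56, SE 0.10, adjusted p = 0.00250). Its saline arrays read 7.50, 7.54 and 7.54 against 7.48, 7.81 and 7.92, with overlap and a difference of 0.21 that did not pass. Only the first saline DBA/2J array, the one with the low SD, overlapped, and those at 7.81 and 7.92 lay above every saline C57BL6/J array. The call held in each of the 9 alternatives that gave a value and without each of the 12 arrays in turn (adjusted p up to 0.0160). The 5 genes called after saline gave -0.17 (Timp4), -0.07 (Itga8), -0.24 (Lamc1), -0.07 (Adamts8) and 0.03 (Col27a1) after ethanol, none past the threshold. Timp3 and Lamc1 were the 2 genes whose arrays did not overlap in the same direction in both comparisons, both lower in DBA/2J (2 of 78, against 11.3% of all genes). The other 4 genes with the smallest p after ethanol, after Itgb1bp1 and Lamc3 (-0.33, adjusted p = 0.0886), were Itgb2 (-0.23), Itgb4 (0.26), Col6a4 (-0.23) and Col4a1 (0.26). Without the ethanol DBA/2J replicate 3, Col4a1 differed by 0.12 (limma adjusted p = 0.658), and its second probe set gave -0.04 with all arrays. The mean of the choroid plexus markers with a value had a median of 6.28 and a highest of 8.00 in DBA/2J after ethanol. In C57BL6/J after ethanol it ran from 6.26 to 6.43. The part of these markers in the values after ethanol was not tested. Beside Itgb2, the mean of the microglia markers ran from 7.89 to 7.91 in DBA/2J and from 8.16 to 8.19 in C57BL6/J after ethanol, with 3 of 11 lower and 1 higher; their part was not tested.

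**Figure D2:**
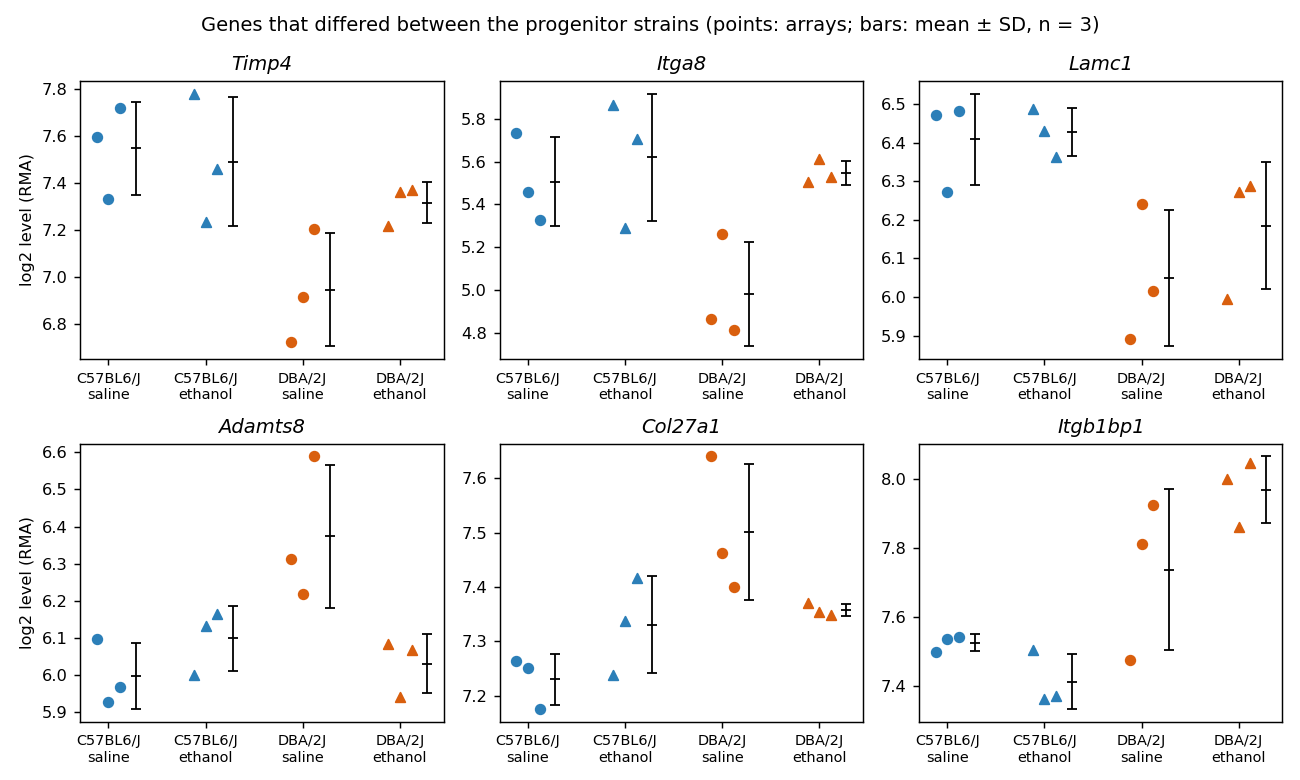
Log2 level (vertical axis) of the 6 genes that passed between C57BL6/J (blue) and DBA/2J (orange), after saline (circles) or ethanol (triangles); each point is an array and bars give the mean and SD of 3 arrays. Timp4, Itga8, Lamc1, Adamts8 and Col27a1 are apart after saline, and Itgb1bp1 after ethanol.

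Across the BXD strains 18 of the 78 genes differed beyond the spread between the 2 arrays of a strain (20.4% of all genes; adjusted p below 0.05, moderated F over 26 strain coefficients), and 30 had an unadjusted p below 0.05 (32.9%). The share of members, 18 of 78, is near that background. They were Col5a2, Col4a2, Col6a1, Col6a2, Col19a1 and Col25a1 among the collagens, Lama2, Lamb1 and Lamc1 among the laminins, Itga5, Itga8 and Itgb4 among the integrins, Itgb1bp1, and Adamts20, Adamtsl3, Mmp14, Timp1 and Timp3 among the proteases, their relatives and their inhibitors. The intraclass correlation, which is near 1 when a strain's saline and ethanol arrays agree and strains differ, and near 0 when they do not, had a median of 0.22 over the 78 genes and 0.18 over all genes. It was above 0.5 for 8 genes, against 13.3% of all genes.

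Timp3, the matrix-bound inhibitor, had the highest value, 0.76. Its strain means covered a 1.31-fold range, from BXD11 to BXD38, and a strain's saline and ethanol arrays differed by a median of 0.07. BXD11 read 8.08 after saline and 8.15 after ethanol, and BXD38 8.55 and 8.45 (adjusted p = 8.7e-04, range over all alternatives and single-strain removals 4.9e-04 to 0.0049). The 3 other Timp3 probe sets above the limit had intraclass correlations of 0.26, 0.24 and 0.23 and did not pass, so this strain difference was seen with 1 of 4 probe sets.

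Col19a1, a minor collagen of neurons and muscle in the group that joins fibrils (FACIT), had 0.69. Its strain means ran from 7.92 in BXD38 to 8.77 in BXD19, a 1.80-fold range (adjusted p = 4.7e-05). BXD08, BXD19, BXD39 and BXD42 stood above a gap between 8.48 and 8.66, and the other 23 strains lay below it. BXD19 read 8.84 after saline and 8.70 after ethanol, and BXD38 7.95 and 7.89. A second Col19a1 probe set also passed, with an intraclass correlation of 0.49 and adjusted p = 0.011. Itgb1bp1 had 0.68, with strain means from 7.24 in BXD14 to 8.02 in BXD42 (1.72-fold, adjusted p = 4.6e-05). Of its 27 strains 6 lay below the C57BL6/J mean of 7.47, 10 above the DBA/2J mean of 7.85 and 11 between.

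Timp1, the inducible and soluble inhibitor, had 0.57, with 1 strain apart from the rest. BXD01 read 6.56 after saline and 7.21 after ethanol, a strain mean of 6.89, and the next strain, BXD31, had 6.43. The lowest, BXD22, had 5.81. Without BXD01 the adjusted p was 0.00649. Lamb1, a laminin beta chain of vessels, had 0.52. BXD38 was lowest at 5.74 and stood 0.36 below the next strain, and BXD34 was highest at 6.85 (adjusted p = 0.00231, and 0.0251 without both strains). Col4a2 had 0.51, from 7.56 in BXD06 to 8.04 in BXD16 (1.39-fold, adjusted p = 0.0110); its partner chain Col4a1 had 0.17 and did not pass.

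Adamtsl3 (0.53) and Adamts20 (0.51), a glycoprotein of the Adamts-like family and a protease first known from pigment cell migration, had their lowest strain mean in BXD38. Adamts20 ran from 5.40 to 6.41, and Adamtsl3 from 4.76 to 5.59. Itga5 (0.50) was lowest in BXD34 at 4.93 and highest in BXD38 at 5.62. Col25a1 (0.47), a transmembrane collagen of neurons, ran from 6.99 in BXD38 to 7.93 in BXD39, Lamc1 (0.46) from 5.93 in BXD38 to 6.56 in BXD16, and Itgb4 (0.46), the partner of alpha 6, from 5.10 in BXD34 to 5.73 in BXD06. Itga8 (0.46) ran from 5.13 in BXD14 to 6.03 in BXD33. For 6 of the genes that passed, 9 other probe sets lay above the limit, and 1 passed, that of Col19a1. Those of Col25a1 (0.06), Lamc1 (0.24), Col6a2 (0.29), Mmp14 (0.22 and 0.18) and Timp3 did not.

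Leaving out both BXD34 and BXD38 gave 12 calls (15.1% of all genes), 11 of them among the 18. The 7 lost were Col5a2 (adjusted p = 0.0602), Adamts20 (0.0691), Mmp14 (0.0721), Col25a1 (0.0812), Itga5 (0.125), Adamtsl3 (0.165) and Lamc1 (0.181). Without BXD38 alone 14 stayed (16.8% of all genes were called). With the array SD as a covariate 13 of 78 were called (16.4% of all genes), all among the 18. Col5a2 (moderated F, adjusted p = 0.0529), Col25a1 (0.0656), Itga8 (0.0667), Itgb4 (0.0805) and Itga5 (0.173) were lost. At the other end, the strains' arrays did not resemble each other more than those of different strains for Adamts8 (-0.39), Mmp17 (-0.26), Mmp16 (-0.26) and Lamb2 (-0.23). Among the roles, 3 of 7 laminin chains, 2 of 4 Timp genes, 2 of 6 beaded and network collagens, 2 of 12 integrin alpha and 1 of 8 integrin beta subunits passed. So did 1 of 9 Mmp, 1 of 8 Adamts and 1 of 4 Adamts-like genes, 1 of 7 FACIT, 1 of 6 fibrillar and 1 of 4 basement membrane collagens, and 1 of the 2 transmembrane and multiplexin collagens. In that fit to all 27 strains 20.4% of all genes passed. Timp2 is counted as not passing by its brightest probe set. Its probe sets with intraclass correlations of 0.52 and 0.43 passed (moderated F, adjusted p = 0.0070 and 0.041), and those with 0.31 and 0.24 did not.

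**Figure D3:**
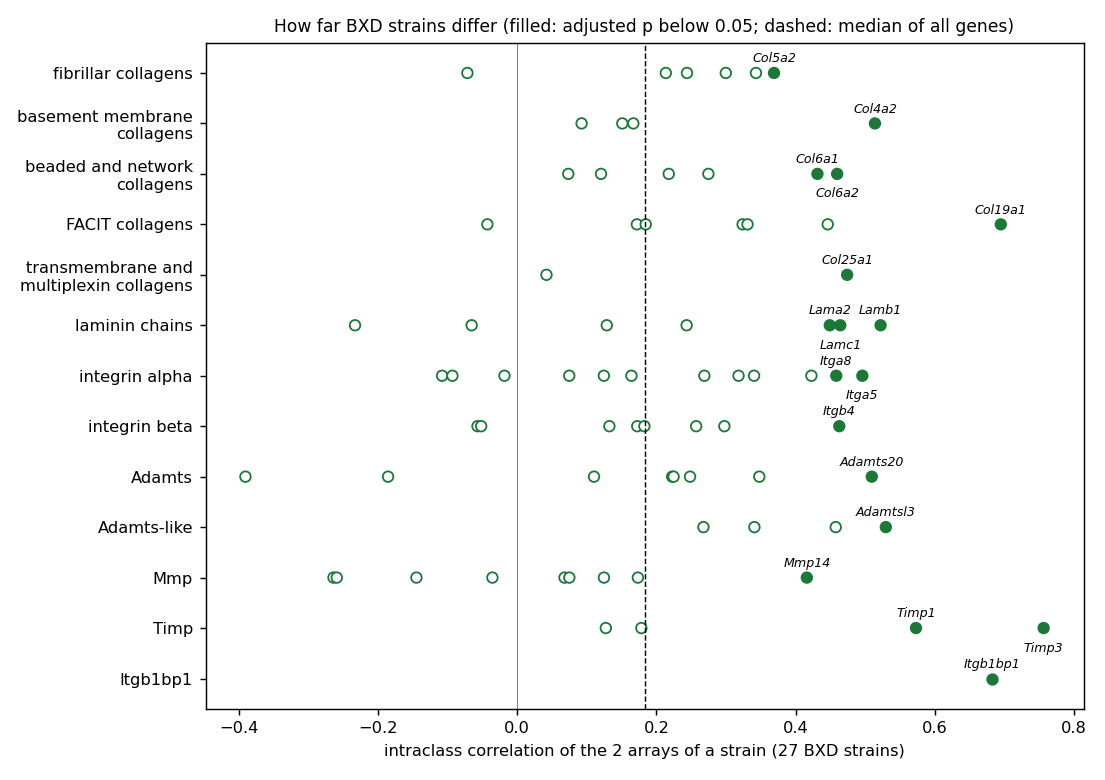
Intraclass correlation of the saline and ethanol array of each strain (horizontal axis) for each of the 78 genes by role (rows), over 27 BXD strains; filled points passed the strain test, open points did not, and the dashed line is the median of all 13196 genes, 0.18. Timp3, Col19a1 and Itgb1bp1 lie farthest to the right and Adamts8 farthest to the left.

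**Figure D4:**
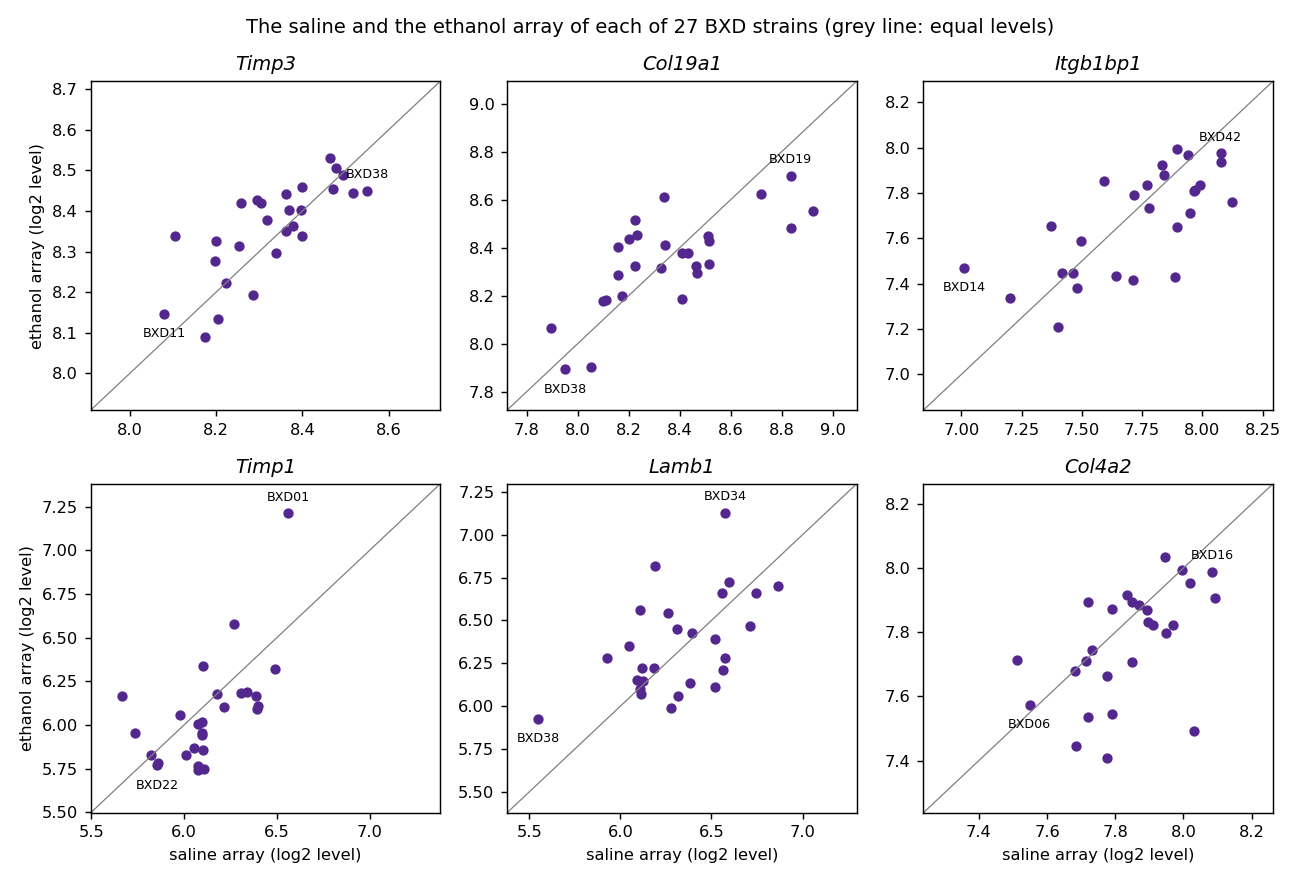
Log2 level on the saline array (horizontal axis) and the ethanol array (vertical axis) of each of 27 BXD strains for 6 genes that passed the strain test; the grey line marks equal levels, and the strains with the highest and lowest mean are named. BXD01 stands alone for Timp1 and BXD38 at the low end of Lamb1, while Timp3 and Col19a1 spread along the line.

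Matrix proteins and their receptors are built from partner subunits, and 15 pairs were compared across the 27 strains, separately on the saline and the ethanol arrays. The pairs were chosen by hand, by shared protein, protease partnership or position, after other results had been seen. They are not all such pairs among the 78 genes. Col6a1 and Col6a3, Itga6 and Itgb1, and Lama5 and Lamb1, among others, were left out of the 15. The counts and the adjustment below cover the chosen pairs only. For 3 of the 15 (Col4a1 and Col4a2, Col6a1 and Col6a2, Lamb1 and Lamc1) a correlation of the strain means was already known when they were listed. Of the 30 correlations 9 had an adjusted permutation p below 0.05 by r and 7 by rho, and 3 pairs did so on both sets of arrays by either measure. The strains are the same in both sets and arrays share their array SD, so the sets are not independent. Over all 3003 pairs of the 78 genes the median r was 0.06 on either set, and the 5th and 95th percentiles were -0.42 and 0.54 on the saline and -0.41 and 0.48 on the ethanol arrays. Pairs of members outside the 15 correlated as strongly. Col9a1 and Col2a1 had r = 0.70 and 0.79 on the saline and ethanol arrays, and Col22a1 and Col4a3 0.74 and 0.61. These pairs were named after their values were seen.

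Col4a1 and Col4a2, which form the same collagen IV molecule, correlated at r = 0.59 (rho = 0.64, adjusted permutation p = 0.0086 for r and 0.0036 for rho) on the saline arrays and r = 0.70 (rho = 0.76, 0.0011 and 0.00015) on the ethanol arrays. Without the 2 strains farthest from the median of Col4a1, r was 0.54 and 0.71. Their genes lie head to head on chromosome 8 and are transcribed away from each other. The 300 bases from 250 before to 50 after each start are shown because the 2 windows share 78 bases on opposite strands. Sequences are from RefSeq, build GRCm38.p6, 5′ to 3′ along each gene's own strand. Capitals mark matches on either strand to GGGCGG (the core of a GC box), to CCAAT (the CCAAT box), to TATAAA (the TATA box) or to TGANTCA (an AP-1 type site), and overlapping matches form a single run.
Col4a1, chr8:11312777-11313076, minus strand: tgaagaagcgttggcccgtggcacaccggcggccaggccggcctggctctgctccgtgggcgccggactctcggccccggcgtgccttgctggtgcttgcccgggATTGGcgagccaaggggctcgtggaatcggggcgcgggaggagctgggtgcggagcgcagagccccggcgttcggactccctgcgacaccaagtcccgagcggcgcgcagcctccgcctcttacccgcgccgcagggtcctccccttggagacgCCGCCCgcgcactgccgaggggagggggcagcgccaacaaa
Col4a2, chr8:11312555-11312854, plus strand: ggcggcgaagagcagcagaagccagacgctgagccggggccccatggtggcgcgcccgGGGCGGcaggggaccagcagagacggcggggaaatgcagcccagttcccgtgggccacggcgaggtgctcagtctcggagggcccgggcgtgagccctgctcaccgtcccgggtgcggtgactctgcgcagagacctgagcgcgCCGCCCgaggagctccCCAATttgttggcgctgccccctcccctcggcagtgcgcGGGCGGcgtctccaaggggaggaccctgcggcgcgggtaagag

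The Col4a1 window held 1 GGGCGG match and 1 CCAAT match, and the Col4a2 window 3 and 1. Neither held TATAAA or TGANTCA. The GGGCGG match of Col4a1 lies in the shared bases and is the same site as the last GGGCGG match of Col4a2. A match is a description of the letters and not a site of binding. Of the 78 genes, 54 matched a window in the table. GGGCGG lay in 66.7% of these 54 and in 62.4% of the windows of all tested genes with one, CCAAT in 29.6% and 37.9%, TATAAA in 9.26% and 7.49%, and TGANTCA in 9.26% and 4.85%. Over all 27025 genes of the table the shares were 35.9%, 37.9%, 14.2% and 7.93%.

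Col6a1 and Col6a2, chains of the beaded filament collagen VI, are next to each other on chromosome 10 and point the same way. They correlated at r = 0.49 (rho = 0.51, adjusted permutation p = 0.034 and 0.031) on the saline arrays and r = 0.70 (rho = 0.60, 0.00090 and 0.0068) on the ethanol arrays. The saline value lies below the 95th percentile of all pairs, 0.54. Without the 2 strains farthest from the median of Col6a1, r was 0.46 and 0.50. Both had their highest strain mean in BXD39, at 7.07 for Col6a1 and 8.11 for Col6a2, and both passed the strain test (adjusted p = 0.0241 and 0.0377). The second Col6a2 probe set did not pass it. Their windows are shown for comparison with the pair that shares bases.
Col6a1, chr10:76725995-76726294, minus strand: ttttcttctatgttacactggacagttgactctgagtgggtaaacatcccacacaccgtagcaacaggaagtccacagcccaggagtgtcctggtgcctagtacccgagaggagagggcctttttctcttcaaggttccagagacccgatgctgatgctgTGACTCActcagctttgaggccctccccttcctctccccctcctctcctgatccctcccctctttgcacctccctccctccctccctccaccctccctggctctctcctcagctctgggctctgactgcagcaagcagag
Col6a2, chr10:76623355-76623654, minus strand: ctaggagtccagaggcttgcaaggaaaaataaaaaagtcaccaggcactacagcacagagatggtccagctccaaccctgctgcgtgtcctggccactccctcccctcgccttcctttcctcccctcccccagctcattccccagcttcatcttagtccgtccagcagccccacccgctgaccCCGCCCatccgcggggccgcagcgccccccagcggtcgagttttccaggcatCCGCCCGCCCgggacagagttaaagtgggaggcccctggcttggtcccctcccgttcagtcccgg

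The Col6a1 window held 1 TGANTCA match and no other, and the Col6a2 window 3 GGGCGG matches, 2 of them overlapping. The third pair was Itgav and Itgb8, which form a receptor that activates latent TGF-beta and lie on different chromosomes. Itgav had a lowest level of 9.48, a median of 9.90 and a highest of 10.06 on the saline arrays, and Itgb8 8.41, 8.82 and 9.24. They correlated at r = 0.65 (rho = 0.66, adjusted permutation p = 0.0026 and 0.0031) and r = 0.82 (rho = 0.77, 0.00030 and 0.00015) on the ethanol arrays. Without the 2 farthest strains r was 0.67 and 0.81. Both correlated about as much with the protease gene Adamts20, no partner of theirs, Itgav at 0.76 and 0.70 and Itgb8 at 0.73 and 0.62. Without BXD34 and BXD38, r ran from 0.49 to 0.79 over the partner pairs Col4a1 and Col4a2, Col6a1 and Col6a2, and Itgav and Itgb8.

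Other pairs were less alike. Lamb1 and Lamc1 correlated at r = 0.49 (rho = 0.35, adjusted permutation p = 0.034 for r and 0.18 for rho) on the saline arrays and 0.02 on the ethanol arrays, and without BXD34 and BXD38 the first fell to 0.30. Mmp2 and Mmp14, a gelatinase and its membrane-bound activator, had r = 0.55 (rho = 0.52, adjusted permutation p = 0.015 and 0.029) and 0.07. Lama4 and Lamb1 had 0.51 (rho = 0.41, adjusted permutation p = 0.032 and 0.10) and 0.11, so the saline values of both laminin pairs passed by r alone, and both lie below the 95th percentile of all pairs. Itgav and Itgb1 had 0.42 and -0.30, and Itgal and Itgb2, the LFA-1 subunits, 0.33 and -0.43, none past the threshold. Col9a1 and Col19a1, neighbours on chromosome 1, had -0.40 on both sets (adjusted permutation p = 0.092 in both). Col5a1 and Col5a2, Itgav and Itgb5, Itga5 and Itgb1, Itga6 and Itgb4, Lama2 and Lamb1, and Mmp14 and its binding partner Timp2 lay between -0.32 and 0.27.

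**Figure D5:**
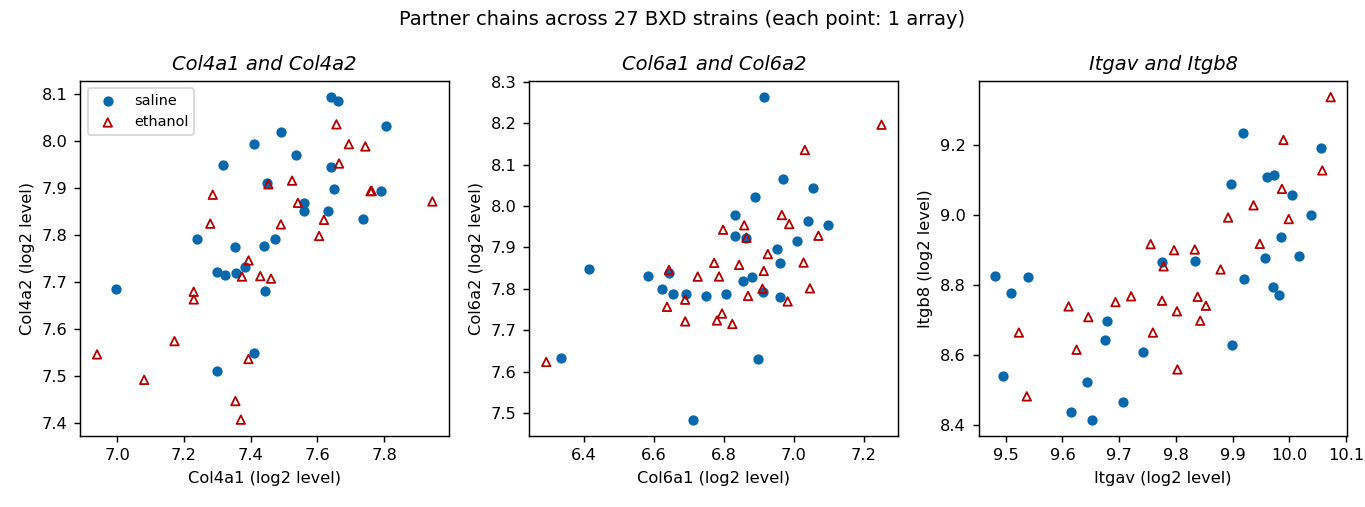
Log2 levels of 3 partner pairs across 27 BXD strains, 1 gene on each axis; filled circles are saline arrays and open triangles ethanol arrays. In all 3 panels strains high for either partner tend to be high for the other, with r from 0.49 to 0.65 on saline and 0.70 to 0.82 on ethanol arrays over the 3 pairs.

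Since collagens are made in the meninges and vessel walls as well, each gene's level was set against the mean level of 12 meningeal and fibroblast markers over the 27 saline BXD arrays, where that mean ran from 7.01 to 7.73. By limma 0 of the 78 genes passed (0.227% of all genes did, 9 of them markers of the score itself). An unadjusted p below 0.05 was found for 10 of 78, against 5.18% of all genes. Slopes were positive for 58 of 78, with a median of 0.12 log2 units per unit of the marker mean, against 0.00 over all genes. All 6 fibrillar, all 4 basement membrane collagens and all 7 laminin chains had positive slopes. Col5a2, a regulator of fibril width, had a slope of 0.49 (SE 0.17, adjusted p = 0.596), Mmp2 0.41 (SE 0.18), Col4a2 0.38 (SE 0.14), Col6a2 0.38 (SE 0.14) and Col18a1 0.34 (SE 0.14). Adamts4, an aggrecanase, had -0.39 (SE 0.17), and on the 27 ethanol arrays its slope was 0.08. With the marker mean as a covariate the BXD strain test called 13 genes, all among the 18, and Col5a2, Itgb4, Lama2, Mmp14 and Col6a2 were lost.

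On the mean of the endothelial markers, which moved less between these arrays (6.96 to 7.26), 0 of 78 passed (limma; 0.0% of all genes), while 2 reached an unadjusted p below 0.05 (2.41%), Itga4 with a slope of 0.74 (SE 0.31) and Itgb5 with 0.68 (SE 0.29). Mmp14 (0.77, SE 0.38), Col4a2 (0.70, SE 0.36) and Lama2 (0.64, SE 0.33) followed, and Col12a1 had -0.61 (SE 0.35). The Lama2 slope was -0.27 on the ethanol arrays.

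Of the 3 interstitial collagen genes kept out of the 78, Col1a1, Col1a2 and Col3a1, all 3 differed between BXD strains, and Col3a1 was higher in DBA/2J after ethanol (0.63, adjusted p = 0.0367). Their slopes on the meningeal mean, which holds them, were 0.85, 1.33 and 2.11. Genes that act on the same matrix changed with ethanol in no list: 0 of 19 collagen assembly genes, 0 of 17 basement membrane linkers, 0 of 15 proteoglycan genes, 0 of 25 integrin adhesion genes and 0 of 19 other pericellular proteases and inhibitors passed in C57BL6/J, DBA/2J or the BXD panel. At an unadjusted p below 0.05 the BXD panel had 4, 0, 0, 2 and 0 of them, against 4.93% of all genes, and no list was tested as a set.

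Between strains the counts of these lists are given beside the shares of all genes called, 10.3% after saline and 20.4% in the BXD strain test; no test of a list was made. After saline, 6 of 17 basement membrane linkers differed, 3 higher and 3 lower in DBA/2J. Those with the smallest p were Fbln2 (0.75), Smoc2 (0.44) and Fbln1 (0.48), matrix proteins of basement membranes, which were higher, and Nid1 (-0.46), the link between laminin and collagen IV, which was lower (adjusted p = 2.7e-04 for Fbln2 to 0.0132 for Fbln1). Serpinh1 (-0.38, adjusted p = 0.0224), the collagen chaperone Hsp47, and P4ha2 (-0.33, adjusted p = 0.0217), a collagen prolyl hydroxylase, were lower, 2 of 19 assembly genes, a share near the 10.3%. Tnr (-1.04), a perineuronal net glycoprotein of oligodendrocytes, was lower and Reln (0.34) and Has1 (0.37) were higher, 3 of 15 proteoglycan genes. Of the adhesion genes 1 of 25 was higher, Src (0.83), and of the other proteases and inhibitors 2 of 19 differed, Adam19 (0.38) upward and Serpini1 (-0.34), neuroserpin, downward, counts below and near the 10.3%. In the BXD strain test 4 of 19, 7 of 17, 6 of 15, 5 of 25 and 5 of 19 genes of the 5 lists passed, Serpinh1, Fras1, Hapln4, Src and Serpini1 with the smallest p in each. The counts 4 of 19 and 5 of 25 are near the 20.4% of all genes.

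The brightest 2 probe sets and the dimmest of each role showed how far single BXD arrays spread, given here as the lowest and highest log2 level after saline and then after ethanol. Among fibrillar collagens, Col27a1 ran from 7.11 to 7.59 and from 7.06 to 7.51, Col5a1 from 6.27 to 6.90 and from 6.20 to 6.66, and Col5a3 from 5.18 to 5.76 and from 5.03 to 5.73. In the FACIT group Col16a1 ran from 6.73 to 7.27 and from 6.71 to 7.16, and Col22a1 from 5.43 to 6.03 and from 5.47 to 5.95. Both treatments covered like ranges. Among network-forming chains Col4a3, which belongs to the collagen IV of kidney and lung, ran from 4.95 to 5.61 and from 4.93 to 5.62, and Col6a4 from 5.03 to 5.88 and from 4.84 to 5.65.

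Lama5, an alpha chain of endothelial laminin, ran from 7.30 to 7.79 and from 7.19 to 7.66, Lama2, the alpha chain of astrocytic and muscle laminin, from 6.42 to 6.96 and from 6.33 to 6.88, and Lama4 from 4.98 to 5.39 and from 4.94 to 5.45. Itga6, a laminin receptor subunit, ran from 7.02 to 7.61 and from 6.99 to 7.58, Itgb5, a partner of alpha V, from 7.98 to 8.51 and from 7.95 to 8.42, and Itgb1 from 7.19 to 7.66 and from 7.11 to 7.83. The dim Itgal and Itgb3, integrin subunits of leukocytes and platelets, ran from 4.94 to 5.77 and 4.78 to 5.65, and from 4.97 to 5.45 and 4.83 to 5.52. None of these integrin genes passed in any comparison. Among proteases, Mmp17, a GPI-anchored enzyme, ran from 8.78 to 9.57 and from 8.83 to 9.35, Mmp16, a membrane-bound enzyme, from 7.31 to 7.95 and from 7.41 to 8.11, and Mmp19 from 4.82 to 5.28 and from 4.89 to 5.31. Adamts10, a partner of fibrillin, ran from 6.75 to 7.40 and from 6.87 to 7.44, Adamts3, a procollagen-processing enzyme, from 6.21 to 7.09 and from 6.40 to 6.96, and Adamts1, an early-response protease, from 5.25 to 6.01 and from 5.34 to 6.03. Adamtsl2, a microfibril-associated glycoprotein, ran from 7.90 to 8.38 and from 7.94 to 8.37. Timp2, the inhibitor that also helps to activate Mmp2, ran from 10.67 to 11.19 and from 10.62 to 11.09.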

How the data were processed

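The deposited values are log2 expression levels per probe set, which the authors made with the affy package and the RMA method, per the submitters' processing notes, whose versions those sources leave unstated. Samples were assigned to batches at random, per the labels' protocols, and the batch of each array was not used here. Scanner intensities and detection calls were not used here.

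Arrays were grouped by strain and treatment from the labels. Of 45037 probe sets, 34945 carried 1 gene symbol, 932 several and 9160 none; those with several or none were left out. Probe sets with a mean below the 40th percentile (5.10) were removed and the brightest was kept for each of 13196 symbols. limma (3.58.1, R 4.3.3; lmFit and eBayes) was fitted to the 12 progenitor arrays together and, with strain as a block, to the 54 BXD arrays. Strain differences in the panel were tested with a moderated F. Slopes on marker means used the 27 saline BXD arrays. P-values were adjusted over all 13196 genes (Benjamini-Hochberg). The 15 partner pairs were tested with 100000 permutations, two-sided, adjusted over 30 relations. The tests were checked on simulated data.

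Genes were named by rule. For each comparison these were the members past the threshold (at most 12 in each direction) or, where fewer than 3 passed, the 6 with the smallest p. For BXD strains they were the 12 highest and 4 lowest intraclass correlations, for levels the 2 brightest and the dimmest of each role, and for other gene lists at most 4 past the threshold. A few genes were always named. The partner pairs were listed after other results had been seen, 3 of them with a correlation already known, and Itga8 among the strain results was named after its values were seen. The members and all gene lists were chosen with earlier results of these data known. Alternatives were other filters, no filter, median centring, repeated quantile normalization, a trended robust prior, marker mean or array SD as covariates, a replicate block, all 66 arrays in 1 fit, and leaving out each array or strain; leaving out BXD34 and BXD38 was added after seeing the data. Precision is limited by the number of arrays.

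Saline and ethanol arrays of a BXD strain come from the same inbred strain, and the block follows from the labels: 22 of 27 saline and 23 of 27 ethanol arrays correlated best with their own strain (median r 0.44, against -0.02 with other strains). Replicate numbers of the progenitor arrays did not pair them (same-number r from -0.36 to 0.26).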

Additional observations from a re-analysis of the deposited data

How the results depend on the processing

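The ethanol comparisons called 0 of the 78 genes under every alternative that was run, and without each array or strain in turn. The saline comparison of the progenitors, with 5 calls, was the least stable. It gave 3 calls with no filter, 2 of 31 genes with a 60th percentile filter, 2 with the meningeal marker mean as a covariate, 2 with the array SD as a covariate and 8 with all 66 arrays in 1 fit, and from 1 to 7 when each array was left out in turn. The cause was not tested, except that the stricter filter tests fewer genes. A replicate block left 4 calls there (8.34% of all genes), 3 of them among the 5, and the comparison after ethanol gave 1 (5.78%). The replicate numbers did not pair the arrays. The comparison after ethanol gave 3 calls with all 66 arrays in 1 fit (8.15% of all genes), Lamc3 among them (limma adjusted p = 0.0273). It gave 1 to 2 when each array was left out (4.85% to 7.93%). The second, Col6a4 (-0.34, limma adjusted p = 0.0446), passed without the ethanol DBA/2J replicate 1. The BXD strain test gave 9 calls of 31 genes with the 60th percentile filter (22.5% of all genes), and 14 to 21 when each strain was left out (16.8% to 21.7%). Of the 18, Col5a2 was lost in 13 of 27 removals of a strain, Itgb4, Lama2 and Mmp14 with median centring, and Itgb4, Col4a2 and Col6a2 with repeated quantile normalization. Col19a1, Itgb1bp1, Lamb1, Timp1 and Timp3 were lost under none of the alternatives or removals run. On the 27 ethanol BXD arrays the endothelial slope of Lama2 was -0.27 and the meningeal slope of Adamts4 was 0.080, both opposite in sign to the saline arrays and neither past the threshold. With 3 arrays per progenitor group, small differences could not be detected, and dim probe sets near the limit of 5.10 carry the least signal over background, which cannot be quantified here without detection calls.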
